A study of Drosophila melanogaster with 8 samples.

Results

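A set of 167 probe sets, out of 18769 on the array besides controls, stood far above all other samples in a single head RNA sample, pulsed replicate 2. A probe set joined the set when its value on that array was at least 2 log2 units, 4-fold, above the highest of the other 7 arrays. Symbols of cytochrome P450, glutathione transferase, UDP-glycosyltransferase, odorant-binding, cuticular and ribosomal protein genes were left out by their prefix, which removed 2 of 169 probe sets. Of the 167, 148 carried 1 gene symbol and stood for 147 genes, 13 carried several symbols, and 6 were not listed in the annotation used for names. A gene was counted if any of its probe sets joined. CG17377 and CG32652 also had probe sets that were not raised, at -0.059 and at -0.19 and -0.24 log2 units from the highest other array. A further probe set of CG17376 was just under the limit, at 1.96. The members were thus chosen by their values on pulsed replicate 2, and their height there is given as a description, without a test.

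The samples were heads of Drosophila melanogaster of the wild-type strain Canton-S, 3 to 5 days old, that had spent 4 days in cycles of 12 h light and 12 h darkness at 25 °C. In 4 samples the flies had received saturating light for 30 min at ZT 15 (zeitgeber time, hours after lights on), after 3 h of darkness, and were frozen 1 h later. The 4 control samples, called unpulsed, had no light pulse, and both groups are labelled ZT 16.5. The labels give no sex, no number of heads and no statement on separate fly cultures, so p-values measure only the spread between these samples, which may be technical.

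The male reproductive tract of the fly lies in the abdomen. Its paired accessory glands secrete seminal fluid proteins, the ejaculatory duct and bulb add further secretions and mating plug proteins, and the testis makes sperm, whose genes are largely transcribed before meiosis and translated in the growing spermatid. The midgut secretes trypsin-like and chymotrypsin-like proteases, maltases and lipases that digest food. Many transcripts of these organs are known as markers of the abdomen rather than of the head. That does not hold for every gene listed here, since some were bright on all head arrays, as given below.

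The same height rule, applied to every array in turn, found 169 probe sets on pulsed replicate 2, which is 0.9% of those measured. It found 1 each, or 0.00533%, on unpulsed replicates 3 and 4, and 0 on each of the other 5 arrays. On pulsed replicate 2 the count was 268 at a limit of 1 log2 unit and 110 at a limit of 3, before symbols were left out. The height of the members on that array over the highest other array ran from 2.04 to 8.66 log2 units, with a median of 3.53. Their values there ran from 4.23 to 13.56, and 8 of them reached 10 log2 units or more. Elsewhere they were dim: in 149 of 167 the highest of the other 7 arrays lay under 3 log2 units, close to the array medians of 2.95 to 3.07. Across those 7 arrays the median range of a member was 0.053 log2 units, against 0.196 over all probe sets. Such flat low values lie near the floor of the measurement, so the height of a member over them is limited by that floor. Brightness also depends on a probe set's own probes, and levels of different genes are therefore not ranked by abundance.

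**Figure D1:**
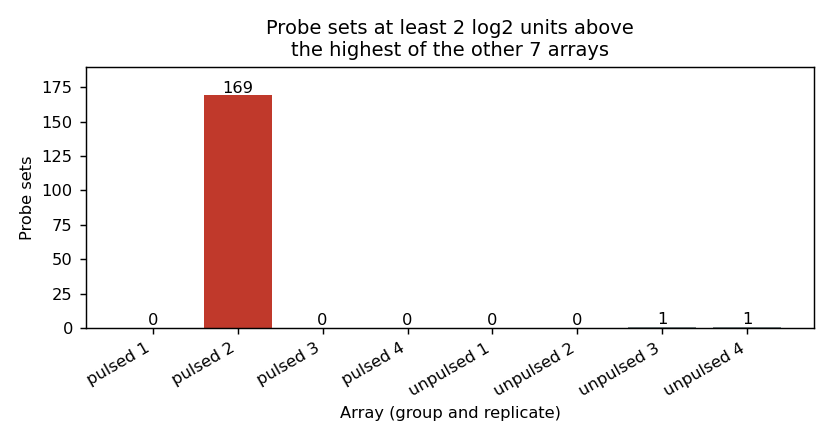
Number of probe sets (vertical axis) whose value on the named array was at least 2 log2 units above the highest of the other 7 arrays, before symbols were left out. Pulsed replicate 2 has 169, unpulsed replicates 3 and 4 have 1 each, and the other 5 arrays have 0.

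Across all 18769 probe sets pulsed replicate 2 correlated with the other arrays at a Pearson's r of 0.985 to 0.988, while the other 7 correlated among themselves at 0.995 to 0.998. With the 167 members left out, the remaining 18602 probe sets gave 0.995 to 0.997 for pulsed replicate 2 and 0.995 to 0.999 among the others. These are correlations across probe sets of one array type, given as a description, and the members were chosen for the difference that was removed.

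Accessory gland genes were the most numerous of the listed members. Of 52 genes in a list of accessory gland and seminal fluid genes, 32 were measured by a probe set with 1 symbol and 17 were members, with heights of 2.89 to 8.15 log2 units. Acp53Ea, an accessory gland protein of unknown function that served as a marker of the set, was at 2.47, 9.94, 2.47 and 2.48 on pulsed replicates 1 to 4. It was at 2.45, 2.46, 2.51 and 2.49 on unpulsed replicates 1 to 4, so pulsed replicate 2 stood alone and the other 3 pulsed arrays lay within the unpulsed range. SP, the sex peptide, which after mating raises egg laying and lowers receptivity in females, was at 2.20, 8.16, 2.20 and 2.21 on pulsed replicates 1 to 4. On the unpulsed arrays SP was at 2.19, 2.19, 2.20 and 2.21, which leaves pulsed replicate 2 as the only array above the floor. The height of SP was 5.95 log2 units on the deposited scale and 3.87 with a pseudocount of 16, since it is measured from the floor.

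Close relatives of Acp53Ea showed the same picture. Acp53C14a was at 10.80 on pulsed replicate 2 and at 2.53 to 2.65 on the other 7 arrays (median 2.56), a height of 8.15 log2 units. Acp53C14b was at 9.98 against 2.40 to 2.44 (median 2.42). In the RefSeq gene order Acp53C14a, Acp53C14b and Acp53Ea follow one another without another protein-coding gene between them, and the neighbouring family member Acp53C14c was at 3.66 against 2.37 to 2.40, under the limit.

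Other accessory gland members were Acp98AB (10.90 against 2.94 to 3.03), Mst57Da (10.27 against 2.79 to 2.86) and BG642312 (8.89 against 2.46 to 2.52). Acp36DE, a glycoprotein needed for sperm storage in the female, was at 8.15 against 2.19 to 2.22. Acp26Aa, the prohormone-like ovulin that stimulates ovulation, was at 6.58 against 2.64 to 2.70, and Acp62F, a protease inhibitor, at 6.09 against 2.39 to 2.58. These 3, like all members named below that are not among the tallest of a list, were picked after their values were seen. All of these genes were at the floor on the other 7 arrays.

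The list was not raised as a whole. Of its 15 measured genes that were no members, 6 had heights between 1 and 2 log2 units, among them the sperm storage lectin gene Acp29AB (4.47 against 2.51 to 2.59), and 9 had less than 1. The protease gene Sems, for seminase, was at 2.56 on pulsed replicate 2 against 2.14 to 2.16, and intr at 2.41 against 2.41 to 2.54. Acp95EF was bright on every array, with 5.01 on pulsed replicate 2 inside the range of 4.56 to 5.41 of the others. The median height over the 32 measured genes, each by its tallest probe set, was 3.03. Over all probe sets, with no such choice, it was -0.095, so both are given as a description only.

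**Figure D2:**
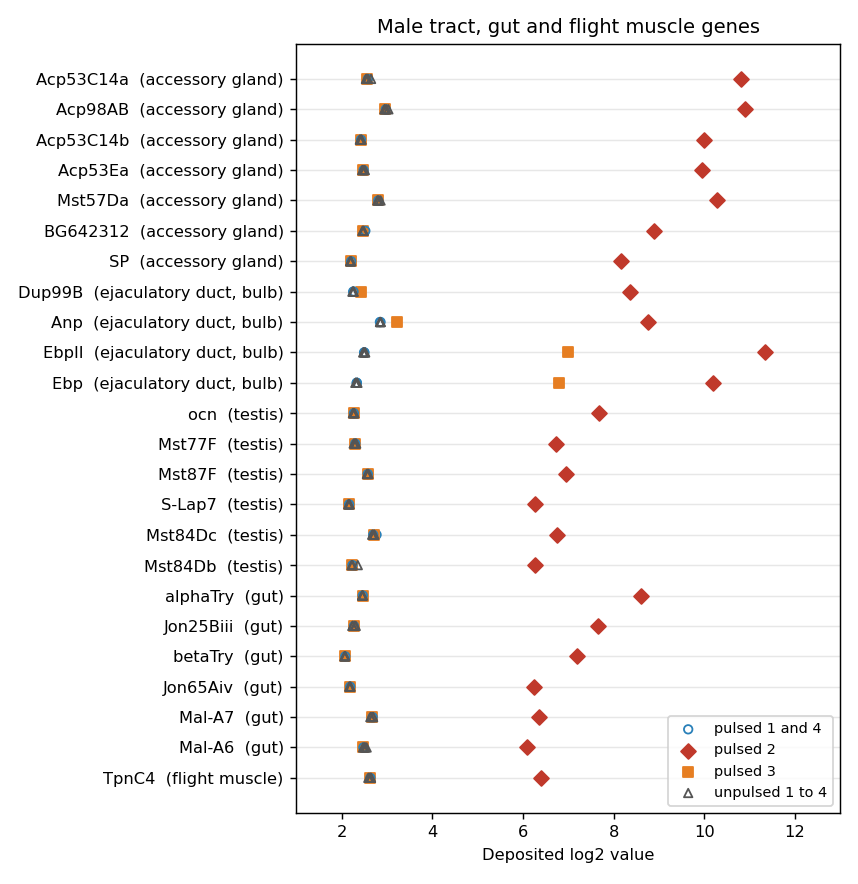
Deposited log2 value (horizontal axis) of named members on each of the 8 arrays, with 1 row per gene and its marker list in brackets. Pulsed replicate 2 (red diamonds) lies between 6.08 and 11.34, and the other arrays lie near 2 to 3, except pulsed replicate 3 (orange squares), at 6.99 for EbpII and 6.79 for Ebp.

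The ejaculatory duct and bulb were represented by 4 of 6 measured genes. Dup99B, a duct peptide related to the sex peptide, was at 2.25, 8.37, 2.43 and 2.26 on pulsed replicates 1 to 4, and at 2.24, 2.25, 2.26 and 2.26 on the unpulsed arrays. Anp, the antibacterial peptide andropin of the duct, was at 2.84, 8.77, 3.22 and 2.86 on the pulsed and at 2.84, 2.85, 2.86 and 2.86 on the unpulsed arrays. Both genes were high on pulsed replicate 2, and their next highest value was that of pulsed replicate 3.

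Ebp and EbpII, unlike the accessory gland members named above, had a second bright array. Ebp, an ejaculatory bulb protein of the mating plug, was at 2.33, 10.18, 6.79 and 2.33 on pulsed replicates 1 to 4, and at 2.30, 2.31, 2.34 and 2.35 on unpulsed replicates 1 to 4. EbpII, its neighbour in the gene order, was at 2.49, 11.34, 6.99 and 2.50 on the pulsed arrays and at 2.48, 2.48, 2.52 and 2.51 on the unpulsed ones. Pulsed replicate 3 thus stood 4.44 log2 units above the remaining 6 arrays for Ebp and 4.47 for EbpII, while 3.39 and 4.35 below pulsed replicate 2. The third gene of that name, EbpIII, was among the brightest probe sets on all arrays, at 15.15 on pulsed replicate 2 and 15.07 to 15.17 on the others, and Gld, a glucose dehydrogenase gene, was at 7.54 and inside the range of the others.

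Testis transcripts were present in part. Of 46 measured genes of a testis list, 13 were members, with heights of 2.07 to 5.40 log2 units. Among them was ocn (ocnus), at 2.26, 7.68, 2.27 and 2.27 on pulsed replicates 1 to 4 and at 2.25, 2.26, 2.28 and 2.28 on the unpulsed arrays. janB, its neighbour in the gene order, was at 4.58 against 2.22 to 2.26. For both genes pulsed replicate 2 stood alone.

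Members with a role in the finished sperm included Mst77F, a histone-like protein of condensed sperm chromatin, at 6.73 against 2.26 to 2.32. Mst87F, a cysteine-rich sperm tail protein, was at 6.96 against 2.56 to 2.59. Of the same family, Mst84Db was at 6.26 against 2.22 to 2.35 and Mst84Dc at 6.75 against 2.67 to 2.77. betaTub85D, the testis tubulin of meiotic spindles and the sperm axoneme, was at 6.22 against 2.30 to 2.34. S-Lap7, a sperm leucyl aminopeptidase, was at 6.27 against 2.15 to 2.17, and S-Lap8 and S-Lap2 were members too.

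The remaining 33 measured testis genes were no members, and 31 of them had heights under 1 log2 unit. aly, can and sa, which are needed in spermatocytes for the expression of spermatid differentiation genes, were at 2.19, 2.40 and 2.29 on pulsed replicate 2, each at or below the top of the range of the other arrays. The testis-specific proteasome subunit gene Prosalpha6T was at 2.34 against 2.34 to 2.38, and fzo, a mitochondrial fusion gene of spermatids, at 2.19 against 2.15 to 2.21. Genes of finished sperm were among the 33 too. The sperm flagellum gene dj was at 3.36 against 2.63 to 2.74. ProtA and ProtB, protamine genes of sperm chromatin, were at 3.93 against 2.87 to 2.98 and at 3.36 against 3.00 to 3.29. Mst84Dd, of the family of Mst84Db, was at 3.93 against 2.18 to 2.23, and Mst98Cb at 4.12 against 2.50 to 2.55. The median height over the 46 genes was 0.031.

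Digestive genes of the gut were also present in part, with 15 members among 48 measured genes and heights of 2.10 to 6.13 log2 units. alphaTry, a midgut trypsin, was at 2.46, 8.60, 2.46 and 2.47 on pulsed replicates 1 to 4, and at 2.45, 2.45, 2.46 and 2.47 on the unpulsed arrays. betaTry was at 7.20 against 2.06 to 2.08, and lambdaTry at 4.75 against 2.28 to 2.32. Pulsed replicate 2 was the only array above the floor for all 3. Some trypsin genes of this cluster are close copies, so the probe sets of alphaTry and betaTry may share signal. A further 2 copies of the list had no probe set with 1 symbol.

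Among the Jonah genes, serine proteases of the midgut, Jon25Biii was at 7.65 against 2.24 to 2.31 and Jon65Aiv at 6.24 against 2.17 to 2.19. Their relatives Jon25Bi, at 2.25, and Jon65Ai, at 2.51, lay within the range of the other arrays. Sugar-splitting enzymes were represented by the neighbouring maltase genes Mal-A6 (6.08 against 2.47 to 2.55), Mal-A7 (6.36 against 2.63 to 2.69) and Mal-A8 (5.11 against 2.37 to 2.40). Mal-A1 had a level of its own on every array, 8.38 on pulsed replicate 2 against 4.79 to 5.81, while Mal-A5 was at 9.23 against 8.91 to 9.20 and was no member. mag, the gut lipase magro, was at 5.48 against 2.59 to 3.38.

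The gut list was likewise not raised as a whole. Some of its genes were bright on every array, such as Mal-B2, at 12.32 against 11.72 to 12.49. Of the 33 measured genes that fell outside the rule, 29 had heights under 1 log2 unit, including the trypsin gene zetaTry (2.11 against 2.11 to 2.13) and Vha100-4, a proton pump subunit of acid-secreting midgut cells (2.08 against 2.08 to 2.11). The median height over the 48 genes was 0.25.

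**Figure D3:**
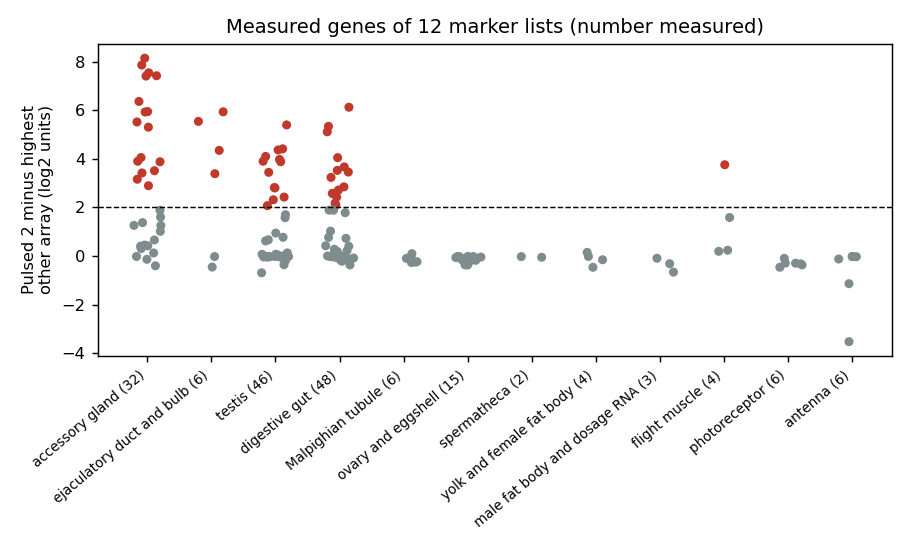
Height of each measured gene on pulsed replicate 2 over the highest of the other 7 arrays (vertical axis, log2 units), by marker list, with the number measured in brackets. Red points are members and the dashed line is the limit of 2, and members occur in the lists of accessory gland, ejaculatory duct and bulb, testis, gut and flight muscle.

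A thoracic transcript was among the members as well. TpnC4, a troponin C isoform of the indirect flight muscle, was at 6.41 on pulsed replicate 2 against 2.59 to 2.65 on the others. The flight muscle list had 3 other measured genes. Of these, fln (flightin) was at 4.50 against 2.73 to 2.91 and Act88F at 4.70 against 4.39 to 4.47. Act79B, an actin gene of that list that was bright on every array, was at 9.88 against 8.42 to 9.69.

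The remaining lists held 0 members, out of 15 measured genes of ovary and eggshell, 6 of the Malpighian tubule, 2 of the spermatheca, 4 of yolk and female fat body, 3 of male fat body, 6 of photoreceptors and 6 of the antenna. Among ovary and eggshell genes the highest of the heights was -0.020, and the chorion gene Cp36 was at 2.53 against 2.57 to 2.61. Photoreceptor genes, which check the label of head RNA, were bright on every array. Arr2, an arrestin, was at 14.69 on pulsed replicate 2 against 14.73 to 15.01. For trp, a channel gene of the photoreceptor light response, the value was 12.78 against 12.90 to 13.25. The heights of the 6 photoreceptor genes lay between -0.47 and -0.099.

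The yolk protein genes, made in females, followed another order over the arrays. Yp1 was at 11.45, 12.53, 5.15 and 5.21 on pulsed replicates 1 to 4 and at 4.82, 12.68, 12.05 and 11.34 on unpulsed replicates 1 to 4. Pulsed replicate 2, with the male tract transcripts, was thus among the 5 arrays high in Yp1, and pulsed replicate 3, with the bulb transcripts, among the 3 that were low. The 3′ minus 5′ log2 difference of the GAPDH control, a sign of RNA integrity, was 0.806 on pulsed replicate 2 against 0.805 to 1.09 on the others, and that of actin was 1.28 against 1.00 to 1.58. That of eIF-4a was 2.81, the lowest of the 8 arrays, against 2.82 to 3.42. The part of sex composition or RNA integrity in the height of the members was not tested. On arrays of whole samples, more cells of an organ and more RNA per cell cannot be told apart.

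Of the 147 genes, 50 belonged to the marker lists and 97 to none, and 75 of the 147 carry only a CG number. The unlisted probe set 1628649_at was at 11.77 against 3.01 to 3.11. CG18628 (10.70 against 2.36 to 2.96), CG8997 (9.47 against 2.54 to 2.60) and whe (8.75 against 1.93 to 1.94) were named genes outside the lists. Acbp5, of the acyl-CoA binding protein family, followed at 8.84 against 2.45 to 2.50, with CG14645 (8.74 against 2.48 to 2.57) and CG5107 (8.40 against 2.11 to 2.13).

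Members were also grouped by their names, with no list behind the grouping. The 4 serpin genes among the members, of a family of protease inhibitors, were Spn77Bb (7.71 on pulsed replicate 2), Spn77Bc (7.61), Spn38F (6.73) and Spn28F (6.41). Spn28F is also one of the accessory gland members counted above. The 3 members named as lectins, sugar-binding proteins, were Lectin-galC1 (5.69), lectin-29Ca (5.10) and lectin-30A (4.80). TrxT, a thioredoxin of the testis, was at 5.21 against 2.49 to 2.63, and MtnC, a metallothionein, at 6.20 against 2.75 to 2.82. In 6 of the 167, the highest other array was at 4 log2 units or more, and Jhbp5 (7.45 against 3.85 to 4.25) and Mal-A1 were the ones among them with a level on all 8 arrays.

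Some members lay side by side in the genome. Of 143 member genes found among the protein-coding genes of the RefSeq table, 36 had another member as the next protein-coding gene, in 15 runs of at most 3 genes, and the share for other genes was not computed. Besides the runs named above these included Mst84Da, Mst84Db and Mst84Dc, then Jon65Aiii and Jon65Aiv, Spn77Bb and Spn77Bc, Acp26Aa and Acp26Ab with CG9029, and CG8997 with CG7916 and CG7953. Neighbouring genes of one family can share probe sequence, so they are not separate observations. Of the array's suffixes for probes shared between transcripts, 16 members have _s_at and 1 has _x_at. A further 14 have _a_at, meant for probes shared by transcripts of 1 gene. Of these, 1639240_a_at and 1630072_a_at nevertheless carry several symbols in the annotation used.

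At the limit of the rule the members just inside were CG3330 (2.06 log2 units), lncRNA:CR32690 (2.05) and Hsp60C (2.04). The genes just outside were CG46298 (1.998), Muc11A (1.99) and CG18404 (1.94).

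Which of the other 7 arrays came next was not part of the rule. Over all 18769 probe sets, pulsed replicate 3 stood at least 1 log2 unit above the remaining 6 arrays in 5, or 0.0266%, and all 5 were members. Besides Ebp and EbpII these were Spn77Bb and 2 probe sets with several symbols. Spn77Bb, a serpin gene, was at 2.50, 7.71, 5.01 and 2.51 on pulsed replicates 1 to 4 and at 2.48, 2.49, 2.51 and 2.52 on the unpulsed arrays. Probe set 1623318_s_at was at 2.90, 13.56, 9.72 and 2.90 on the pulsed and 2.90, 2.89, 2.91 and 2.91 on the unpulsed arrays, and 1630072_a_at was at 6.11 and 3.82 on pulsed replicates 2 and 3 and at 2.38 to 2.63 elsewhere. All 5 were thus highest on pulsed replicate 2 and next on pulsed replicate 3, between 2.29 and 4.35 log2 units lower.

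At a smaller gap of 0.25 log2 units pulsed replicate 3 came next in 8 members, with CG18628 (2.96 against at most 2.43 on the remaining arrays), Anp and the seminal fluid gene Sfp24Bb (3.17 against at most 2.89) added. That compares with 77 probe sets of all 18769 in which pulsed replicate 3 led the 7 arrays by that gap. Under that gap, pulsed replicate 3 came next in further members, among them Acp63F of the accessory gland list (2.84 against at most 2.69). For SP, alphaTry and ocn, by contrast, pulsed replicate 3 lay inside the range of the other arrays, at 2.20, 2.46 and 2.27. Any of the 7 arrays led by at least 1 log2 unit in 0.128% of probe sets, 24 in number, of which 7 were members. The other 2 members were raised on unpulsed replicate 1. CG16826 was at 3.50 there and at 2.17 to 2.19 on the remaining 6 arrays, against 9.11 on pulsed replicate 2, and probe set 1641567_at was at 3.60, 2.28 to 2.45 and 8.25.

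**Figure D4:**
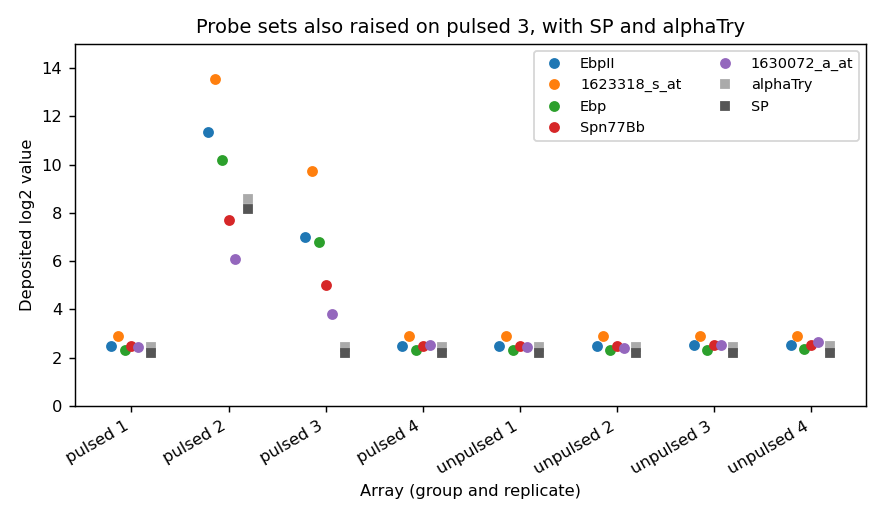
Deposited log2 values (vertical axis) on the 8 arrays (horizontal axis) of the 5 members also raised on pulsed replicate 3 (circles), with SP and alphaTry (squares) for comparison. The circles lie between 3.82 and 9.72 on pulsed replicate 3, where SP and alphaTry are at 2.20 and 2.46.

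The pulse comparison was made for the members without pulsed replicate 2, as 3 pulsed against 4 unpulsed arrays fitted with limma over all probe sets. At an adjusted p of 0.05 this fit called 0 of 18769 probe sets (0%) and 0 of 167 members. At an unadjusted p of 0.05 there were 609 probe sets, 3.24% of those tested, and again 0 members. The median log2 difference, pulsed minus unpulsed, was 0.0028 over the members and 0.0026 over all probe sets. On these 7 arrays most members were flat near the floor, as described above, so the fit mostly compared floor values, and differences near 0 without calls carry no information on a response of these genes. For 160 of 167 members the difference was within 0.25 log2 units of 0. SP had a difference of 0.0073 (SE 0.011) and alphaTry of 0.0037 (SE 0.010), and Acp53Ea of -0.0041 (SE 0.017), with limma adjusted p of 1.00 for each.

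The other 7 were the 5 members raised on pulsed replicate 3, higher in pulsed heads, and the 2 raised on unpulsed replicate 1, lower by up to 0.36 log2 units. Probe set 1623318_s_at had the largest difference, 2.27 (SE 1.74, limma adjusted p = 1.00). Ebp had a mean of 3.82 (SD 2.57, n = 3) in pulsed and 2.32 (SD 0.021, n = 4) in unpulsed heads, a log2 difference of 1.49 (SE 1.14, limma adjusted p = 1.00). EbpII had 1.50 (SE 1.15) and Spn77Bb 0.84 (SE 0.64), also at an adjusted p of 1.00 with limma. Of the 3 pulsed arrays left, 1 was above the unpulsed range by more than 0.1 log2 units in each of these 4 probe sets, so the differences were no larger than the spread between replicates.

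With pulsed replicate 2 in the fit, the differences of the 167 members ran from 0.51 to 4.37 log2 units, and 71 were 1 log2 unit or more. This fit uses the values that chose the members, and 1 high array of 4 sets both the difference and its SE, so neither the sign nor the number of calls is read as a result. In this fit limma called 0% of all probe sets, and 4.81%, or 902, had an unadjusted p under 0.05. SP, for example, had a difference of 1.50 (SE 1.38) with pulsed replicate 2 and 0.0073 without it.

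**Figure D5:**
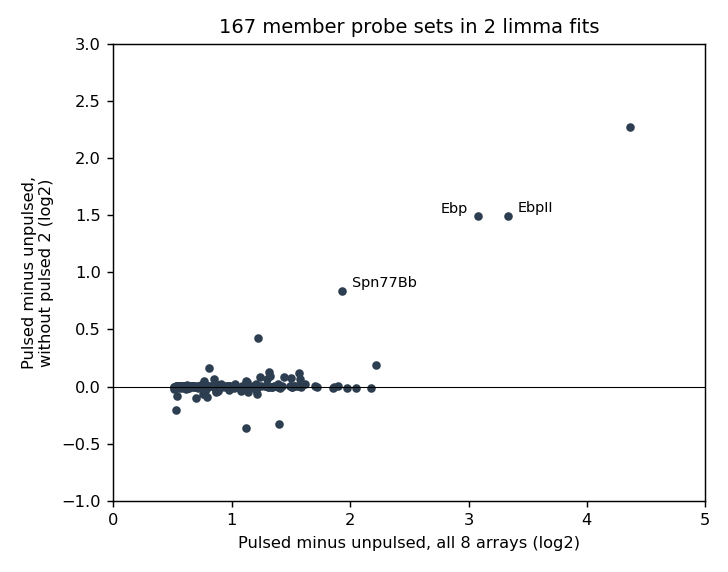
Log2 difference between pulsed and unpulsed heads of each of the 167 members, with all 8 arrays (horizontal axis) and without pulsed replicate 2 (vertical axis). The differences run from 0.51 to 4.37 with that array and lie within 0.25 of 0 for 160 members without it, with the unnamed top right point, 1623318_s_at, at 2.27, EbpII at 1.50, Ebp at 1.49 and Spn77Bb at 0.84.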

How the data were processed

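Head RNA, from a Trizol extraction, was labelled by in vitro transcription and hybridised to Affymetrix arrays, per the labels' protocols. The log2 values are those of the single table the authors deposited, with 1 row for each probe set. That the scale is log2 follows from values ending under 16. Probe summary, background correction and normalization are not given in the sources used here. Of 18952 probe sets, 183 controls were left out. Names came from the platform annotation (13646 probe sets with 1 symbol, 402 with several, 4721 not listed), and 13543 were updated through NCBI RefSeq (assembly Release 6 plus ISO1 MT), used only for names and gene order. Probe sets with several symbols are given by their ID.

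The members and the marker lists were chosen with earlier results of these data known. A list gene was represented by its tallest probe set with 1 symbol. Named were the 4 marker genes, the 12 tallest members, up to 6 members per list and 3 genes on each side of the limit, and other names were picked after their values were seen. Pulsed replicates 1, 3 and 4 were compared with 4 unpulsed arrays by limma 3.58.1 in R 4.3.3, in a two-sided test adjusted by Benjamini-Hochberg over the whole table. The fit and the rule were also run on simulated data, with changes in brighter probe sets for the fit and a large fixed rise for the rule. That setting differs from the members, which were mostly dim outside pulsed replicate 2, and no result here rests on it. No sequence of a member is printed. Alternatives were other limits, scalings, a pseudocount of 16, a filter at the 40th percentile of mean value, a trended robust spread, the replicate block and fits that each drop 1 array. The number of arrays limits the precision. Same-numbered pulsed and unpulsed arrays did not deviate together (r from -0.155 to 0.023).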

Additional observations from a re-analysis of the deposited data

Results flagged for a closer look

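In groups of 4 arrays the gap of the highest or lowest array to its nearest neighbour, divided by the range of the group, was set against Dixon's 95% limit for 4 values, which chance passes in about 5% of groups. Of 66 groups, 33 named genes in each condition, 32 passed. The 31 among pulsed arrays all have pulsed replicate 2 on top. The members were chosen by their height on that array, so these ratios are a description, the chance rate does not apply to them, and passing is no evidence. The ratio was 1.00 for CG14645. It was 0.999 for Acp53C14b, whe, Acbp5, CG5107, alphaTry, SP, ocn, betaTry, Mst77F, S-Lap7, Jon65Aiv, Mst84Db, Mal-A6, lncRNA:CR32690 and Hsp60C. It was 0.998 for Acp98AB, Acp53Ea, Mst57Da, CG8997, Jon25Biii, Mst87F and TpnC4, 0.997 for Acp53C14a, and 0.993 for BG642312 and Mal-A7. Mst84Dc had 0.982, Dup99B 0.971, CG3330 0.943, Anp 0.937 and CG18628 0.929. Ebp and EbpII did not pass, since pulsed replicate 3 lies between pulsed replicate 2 and the other arrays. Among unpulsed arrays Mst84Db passed with a ratio of 0.882, from a value of 2.35 on unpulsed replicate 4 against 2.22 to 2.24.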

How the results depend on the processing

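The number of members was 262 at a limit of 1 log2 unit, 108 at 3 and 82 with a pseudocount of 16, which compresses dim values, and it ran from 138 to 175 under the other scalings, references and filters. All 167 remained at a limit of 1, and leaving out each other array gave 167 to 168. Neither change can remove a member, so both follow from the rule and are no check of it. The testis list held 8 members at a limit of 3 and 7 with the pseudocount, against 13, and the gut list 8 and 6, against 15, while the accessory gland list held 13 to 23 and the ejaculatory list 4 throughout. All 33 named genes stayed above the other arrays under each of 11 alternatives. Alternatives that drop 1 array or use the mean of the others can only keep or raise a height. Under some of the rest, heights fell below the limit of 2 log2 units. At their lowest they were 1.93 for Mal-A6, 0.97 for CG3330, 0.86 for lncRNA:CR32690 and 0.79 for Hsp60C. Without pulsed replicate 3 the height of Ebp was 7.83 and that of EbpII 8.82, against 3.39 and 4.35. In the fit without pulsed replicate 2, limma passed 0 probe sets, and 1 with quantile normalization, 2 with median-centred arrays, 1 with the filter, 1 with the trended robust spread, 1 at an adjusted p of 0.1 and 609 at an unadjusted p of 0.05. Leaving out each of the 7 arrays gave 0 to 1. No member passed an adjusted p in any of these, and the cause of these shifts was not tested. The replicate block passed 0 probe sets and 0 members, and the numbers share no pairing in the data. The difference of Acp53Ea, -0.0041, turned to 0.0060 with median-centred arrays, 0.0061 without unpulsed replicate 3, 4.4e-05 without unpulsed replicate 4 (-0.013 to 0.0061 over each array left out) and 1.86 with pulsed replicate 2. The rule itself has no value without pulsed replicate 2. Dim values near the floor limit all heights.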

Other observations

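The rule left out 2 probe sets by their symbol. Cyp4g1, a cytochrome P450 gene of oenocytes that serves cuticular hydrocarbon synthesis, was at 11.67 on pulsed replicate 2 and at 3.44 to 7.70 on the other arrays, so it was above the floor and varied on the arrays on which members were flat. Obp51a, an odorant-binding protein gene, was at 7.18 on pulsed replicate 2, at 3.04 on pulsed replicate 3 and at 2.33 to 2.39 on the remaining 6, near the floor.

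In the opposite direction, probe sets at least 1 log2 unit below the lowest of the other 7 arrays were counted among all 18769. There were 23 on unpulsed replicate 3, 1 on pulsed replicate 2 and 0 on each remaining array. The 1 on pulsed replicate 2 belonged to Obp83b, an odorant-binding protein gene of the antenna, at 2.93 against 4.48 to 6.46. lush, another odorant-binding protein gene of the antenna, was at 3.39 against 3.44 to 4.53.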
